A study of Mus musculus with 2 samples.

Results

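A set of 35 genes of DNA replication and S phase was followed through the cell classes of embryonic mouse pancreas (day 14.5 of gestation), which makes 35 of the 32285 features measured. The genes were chosen by symbol and by known role, not by level. All 35 had UMIs (unique molecular identifiers, 1 per captured RNA molecule) in each of 9 cell classes of both libraries. They also had UMIs in the barcodes under 2000 UMIs outside these classes, in both libraries. The question behind the series is what Fgf9, which encodes a secreted fibroblast growth factor, does in pancreas development. The Null library pooled 3 pancreata of genotype Fgf9 -/- from 3 litters, whose Fgf9 locus carries a LacZ cassette. The Control library pooled 8 pancreata, also from 3 litters, with the genotypes Fgf9 +/+ and +/-, so some Control embryos carry 1 mutant allele. Both came from mice on a C57BL/6J background, were dissociated with TrypLE, sorted as DAPI-negative single cells after a size gate, and run on the 10x Genomics droplet assay. Each group is 1 pooled library, so no test between groups was possible and embryos could not be told apart.

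Before S phase, the licensing factors Cdc6 and Cdt1 help load the ring-shaped MCM helicase onto DNA, and geminin (Gmnn) later blocks reloading by binding Cdt1. Cyclin E starts the process together with its kinase, Cdc45 and the GINS complex turn the loaded ring into an active helicase, and the polymerases then copy both strands behind it. Many of these genes are transcribed by E2F factors once the retinoblastoma proteins are inactivated, so their messages accumulate around the G1 to S transition and fade in cells that leave the cycle. In the pancreas at this age, acinar-forming and trunk epithelium divides, whereas Neurog3-positive endocrine progenitors and hormone cells are known as mostly post-mitotic.

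The promoters of these genes often hold letter strings known as E2F sites, and 5 of them are printed here because they belong to the helicase (Mcm3, Mcm5, Mcm6), to its loader (Cdc6) and to the S phase remodeller whose correlation with the other 34 genes over cells is given further on (Hells). Sequences are RefSeq's, in build GRCm38.p6, 5' to 3' along the gene's strand, with capitals marking TTTCCCGC, TTTCGCGC, TTTGCCGC or TTTGGCGC on either strand.
Mcm3 promoter, chr1:20820263-20820562, minus strand: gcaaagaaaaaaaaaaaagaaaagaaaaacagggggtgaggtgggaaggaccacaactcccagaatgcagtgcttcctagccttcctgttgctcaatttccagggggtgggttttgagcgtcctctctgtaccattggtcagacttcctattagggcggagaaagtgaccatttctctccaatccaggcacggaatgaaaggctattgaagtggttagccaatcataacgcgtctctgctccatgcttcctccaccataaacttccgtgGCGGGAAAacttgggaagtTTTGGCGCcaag
Mcm5 promoter, chr8:75109259-75109558, plus strand: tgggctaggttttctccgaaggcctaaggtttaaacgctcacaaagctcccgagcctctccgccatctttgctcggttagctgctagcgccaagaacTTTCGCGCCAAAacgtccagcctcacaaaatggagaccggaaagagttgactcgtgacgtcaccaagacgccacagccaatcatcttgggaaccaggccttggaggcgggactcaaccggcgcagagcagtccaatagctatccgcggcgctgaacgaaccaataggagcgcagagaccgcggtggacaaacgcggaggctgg
Mcm6 promoter, chr1:128359656-128359955, minus strand: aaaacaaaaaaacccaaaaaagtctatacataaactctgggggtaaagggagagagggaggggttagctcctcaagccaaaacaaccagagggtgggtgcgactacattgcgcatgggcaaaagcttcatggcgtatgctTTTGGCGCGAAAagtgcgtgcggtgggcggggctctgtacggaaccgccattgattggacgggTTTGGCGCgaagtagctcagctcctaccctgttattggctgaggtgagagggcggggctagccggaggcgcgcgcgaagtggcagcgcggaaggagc
Cdc6 promoter, chr11:98907901-98908200, plus strand: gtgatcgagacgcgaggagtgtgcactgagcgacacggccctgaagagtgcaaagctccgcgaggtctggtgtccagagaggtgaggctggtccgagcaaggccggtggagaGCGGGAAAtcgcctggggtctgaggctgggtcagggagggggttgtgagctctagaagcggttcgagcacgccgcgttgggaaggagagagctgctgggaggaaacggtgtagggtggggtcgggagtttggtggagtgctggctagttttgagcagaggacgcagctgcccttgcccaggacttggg
Hells promoter, chr19:38930740-38931039, plus strand: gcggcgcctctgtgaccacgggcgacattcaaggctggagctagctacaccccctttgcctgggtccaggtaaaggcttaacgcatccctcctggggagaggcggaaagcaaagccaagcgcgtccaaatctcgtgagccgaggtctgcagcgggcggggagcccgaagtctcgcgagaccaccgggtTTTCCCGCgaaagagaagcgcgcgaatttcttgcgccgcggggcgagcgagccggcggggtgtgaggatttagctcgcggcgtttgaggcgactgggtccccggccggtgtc
Of the 35 genes, 28 had a promoter window in the reference table, and 13 of these 28 (46.4%) held at least 1 of the E2F letter strings. Over all genes with a window the share was 2.61% (704 of 27025). Counted from the start base of each window's transcript as 0, the strings began at 19 and 38 in Mcm3, at -138 in Cdc6 and at -62 in Hells. A second gene annotation places Cdc6 at chr11:98907801-98923940, so the printed Cdc6 window and its string lie downstream of that start. In Mcm5 the pair at -153 and -149 overlapped on opposite strands, and in Mcm6 the pair at -110 and -106 overlapped likewise, with a separate string at -47. The other genes with a string were Mcm7, Cdt1, Lig1, Pola1, Pold1, Uhrf1, Dtl and Clspn. TTTGAA, the cell cycle homology element found in many G2/M promoters, occurred in 3 of the 28 (10.7%), against 20.2% of all genes and 16 of 24 G2/M genes with a window. CCAAT occurred in 17 of the 28 (60.7%), against 41.1% of all genes. A string is a run of letters and not a measured binding site.

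The Null library had 16708 barcodes with 271129120 UMIs, and the Control library 30209 barcodes with 339959625 UMIs. Cells of the named classes numbered 8470 in the Null and 16346 in the Control library, with median UMIs of 25066 and 14960. Cell classes were built from marker genes and are called acinar-like and so on, shortened below to the class name. In both libraries every fixed marker was higher in its own class than in the other cells, with the exception of 1 of 8 ductal markers. The clusters were named from these same markers, so this follows largely from the naming and does not check the names. Levels below are in CPM, a gene's UMIs scaled to the total UMIs of the same cells, with haemoglobin and mitochondrially encoded genes left out of that total. Fgf9 itself stood at 1.72 CPM in Null and 9.57 CPM in Control cells of the named classes, which checks the labels only in part, since the sources used here do not say which stretch of the transcript the cassette removes. In the Null library 7186 cells had Y-linked and no Xist UMIs and 1 cell the reverse, against 4841 and 6522 cells in the Control library. The libraries shared 180 barcodes, 42 of them in named classes of both. Of the 35 genes, 10 overlap another annotated gene, 9 of these on the opposite strand, and nothing available says whether the counting used strand, so reads of such a pair may not be separable.

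The summed level of the 35 genes set the dividing classes apart from the endocrine lineage in both libraries. The ductal or trunk class, the bipotent epithelium that also gives rise to endocrine cells, had 2938 CPM in the Null and 3134 CPM in the Control library. Acinar cells, the enzyme-producing exocrine cells, had 2763 CPM in the Null and 2960 CPM in the Control library. Endocrine progenitors had 1047 CPM in the Null and 1502 CPM in the Control library, and endocrine cells were lowest in both libraries with 519.7 and 1300 CPM. Immune cells had 2465 CPM in the Null and 2394 CPM in the Control library, mesenchymal cells 2385 and 2540 CPM, and mesothelial cells 1699 and 2472 CPM. Endothelial cells stood at 1940 CPM in the Null and 2530 CPM in the Control library, and neural cells at 2111 and 2060 CPM; these classes held fewer than 200 cells in at least 1 library and are given as levels only. Exact Poisson 95% intervals of these sums were narrow, for example 1674 to 1725 CPM for Null and 2448 to 2495 CPM for Control mesothelial cells, and like all intervals here they cover counting error only. They separated the ductal sum from the acinar sum in both libraries, whereas the Control levels of mesenchymal and endothelial cells did not differ beyond them.

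**Figure D1:**
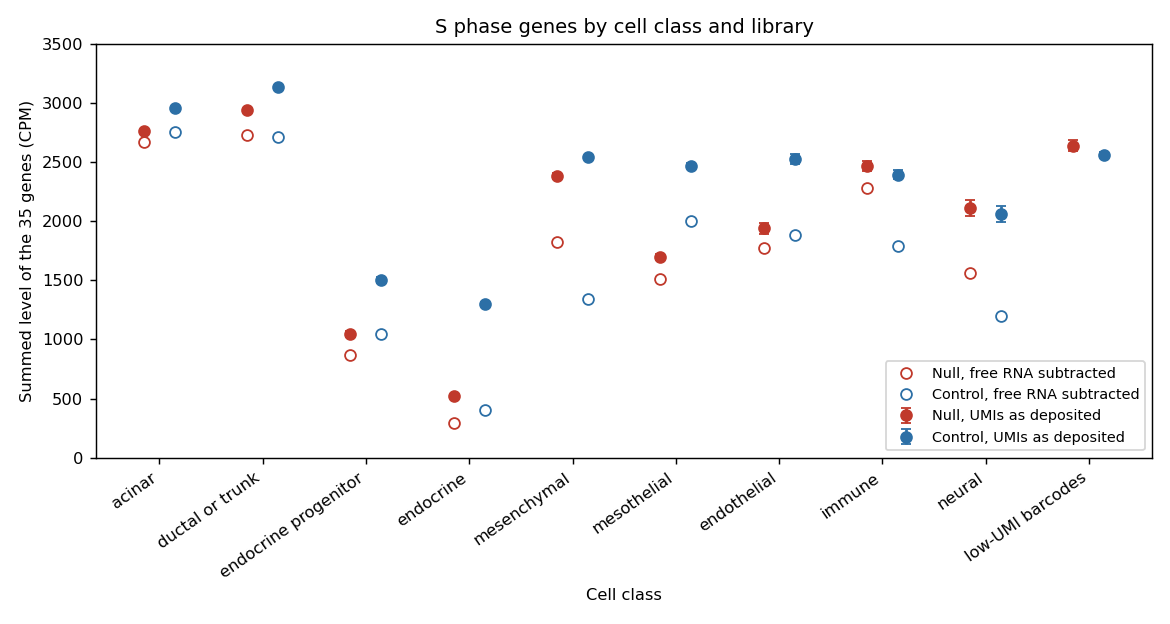
Summed level of the 35 genes in CPM (vertical axis) by cell class, with Null in red left of Control in blue; filled points are deposited UMIs with exact Poisson 95% intervals and open points have an estimate of free RNA subtracted. Endocrine cells are lowest in both libraries (519.7 CPM in Null, 1300 CPM in Control), and low-UMI barcodes stand near the dividing classes (2638 and 2563 CPM).

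Free RNA bears on these levels. Barcodes under 2000 UMIs and outside the named classes carried the 35 genes at 2638 CPM in the Null and 2563 CPM in the Control library, about as high as the dividing classes. Their median UMIs were 699 in the Null and 1612 in the Control library, and whether some hold cells was not tested. The named classes themselves held 742 Null and 999 Control barcodes under 2000 UMIs. The low-UMI barcodes stood for free RNA in the estimate that follows, so that estimate rests on unlike barcodes in the libraries. The share of each class's UMIs that could be free RNA was estimated from digestive enzyme UMIs (islet hormones for acinar cells), as an upper estimate that takes all such UMIs in a class as foreign. It was 8.57% in Null and 34.9% in Control endocrine cells, 7.22% and 18.4% in mesothelial cells, and 21.3% and 46.6% in mesenchymal cells. With it subtracted, endocrine cells had 293.6 CPM in the Null and 404.7 CPM in the Control library, mesothelial cells 1509 and 2000 CPM, and mesenchymal cells 1823 and 1346 CPM, so the mesenchymal order between libraries turned round.

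The difference between classes within a library held for nearly every gene. In the Null library the median log2 ratio of acinar over endocrine cells was 2.83 over the 35 genes, and 34 of 35 were at least 1.5-fold higher in acinar cells, against 20.3% of all 14605 genes with at least 50 UMIs. In the Control library the median was 1.26 and 32 of 35 passed, against 13.4% of all genes. For ductal over endocrine cells the medians were 2.86 in the Null and 1.35 in the Control library, with 35 of 35 past 1.5-fold in each, against 27.2% and 18.3% of all genes. Endocrine progenitors over endocrine cells gave 1.13 in the Null library, with 25 of 35 past 1.5-fold against 21% of all genes, and 0.20 in the Control library, with 3 of 35 against 13%. The Control values depend on endocrine cluster 16, whose median depth was low and which holds 30.8% of Control endocrine cells. Without it, 30 of 35 genes were past 1.5-fold for progenitors, against 17.8% of all genes. The Control medians without it were 0.95 for progenitors, 2.21 for acinar and 2.26 for ductal cells. In the Null library, where it holds 10.3%, they were 1.25, 2.90 and 2.91 without it. Rrm2, the inducible small subunit of ribonucleotide reductase, stood at 119 CPM in Null acinar and 7.60 CPM in Null endocrine cells, and at 127 CPM in Control acinar and 42.0 CPM in Control endocrine cells. Slbp, which binds the stem-loop of histone mRNAs, differed least between acinar and endocrine cells of the Null library, with 119 and 79.8 CPM. Its Control levels were 125 CPM in acinar and 96.6 CPM in endocrine cells.

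The genes were also spread unevenly from cell to cell inside a class. After each cell was thinned to 2000 UMIs, ductal cells carried on average 5.34 UMIs of the 35 genes in the Null and 5.69 in the Control library, with a variance of 4.01 and 3.35 times the mean. The share of ductal cells with at least 10 such UMIs was 17.5% in the Null and 18.2% in the Control library, and of acinar cells 14.8% and 15.1%. In endocrine cells, the class that should hold few cycling cells, it was 0.334% in the Null (exact binomial 95% interval 0.0690% to 0.974%) and 1.19% in the Control library (0.731% to 1.84%). Endocrine progenitors stood at 0.557% in the Null (0.0675% to 2.00%) and 2.85% in the Control library (1.80% to 4.29%). Mesothelial cells stood at 6.13% in the Null (4.33% to 8.39%) and 10.2% in the Control library (8.72% to 11.8%). These intervals take the cells of 1 pooled library as independent and do not cover differences between embryos, so they do not compare the groups. Mesenchymal cells went the other way, with 12.7% in the Null (10.6% to 15.0%) and 7.96% in the Control library (7.10% to 8.88%), while their mean counts of 4.33 and 4.44 UMIs were close. Thinned to 5000 UMIs, the mesenchymal shares were 38.6% in the Null and 44.0% in the Control library, so the order turned round; there the share of cells left out is larger as well and the bound of 10 UMIs lies lower relative to the mean. At 5000 UMIs the acinar shares were 58% in the Null and 68.0% in the Control library and the ductal shares 49.6% and 57.7%, further apart than at 2000 UMIs. The endocrine shares were 0.952% in the Null and 10.3% in the Control library, also further apart.

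Thinning to 2000 UMIs left out 252 of 839 Null and 221 of 1752 Control mesothelial cells, 336 of 1227 Null and 648 of 4316 Control mesenchymal cells, and at most 41 cells of any other class in either library. Unthinned, where median depth was higher in the Null than in the Control library in every class compared, the shares with at least 10 UMIs were 42.0% and 54.7% in mesothelial cells and 95.2% and 93.3% in ductal cells. They were 41.1% in Null and 45.5% in Control endocrine cells.

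**Figure D2:**
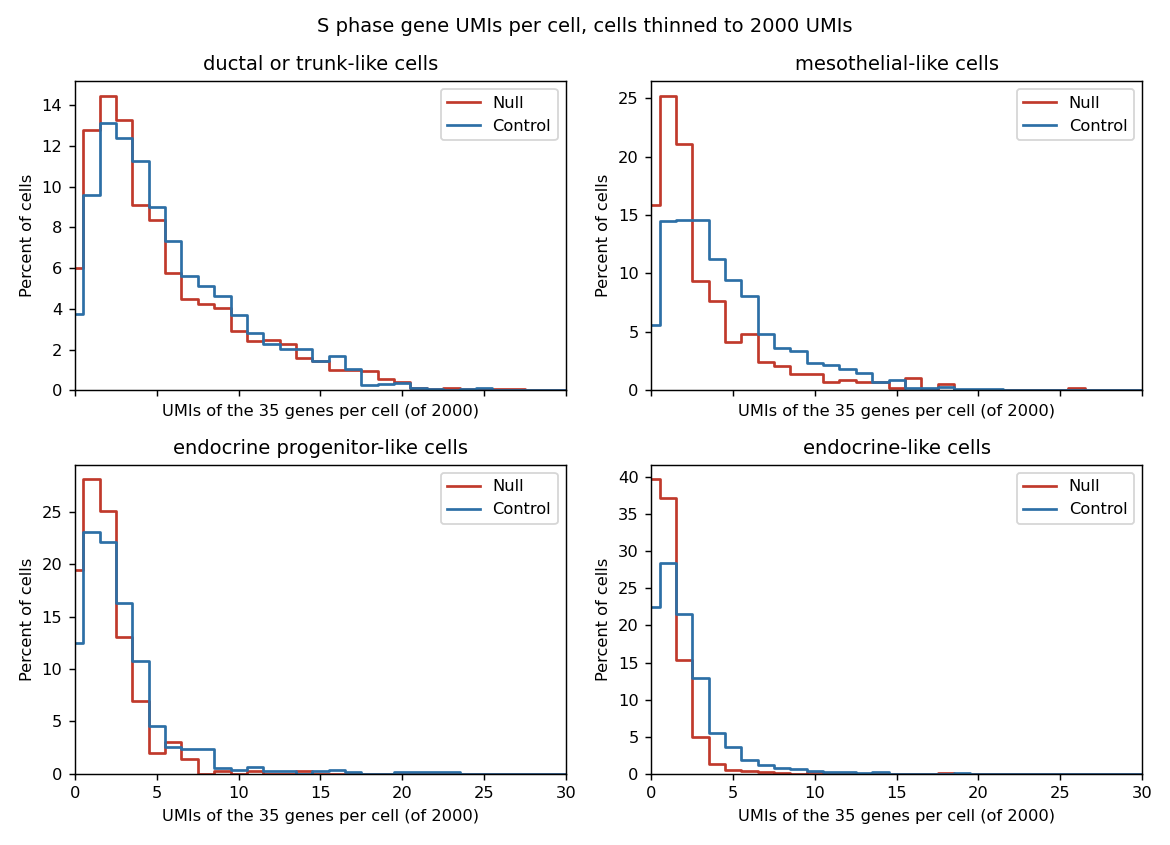
Percent of cells (vertical axis) by the number of UMIs of the 35 genes per cell after thinning to 2000 UMIs (horizontal axis), Null in red and Control in blue, for 4 classes. Mesothelial cells pile up at low counts more in the Null library (6.13% with at least 10 UMIs, against 10.2% in Control), and ductal cells have a long tail in both (17.5% and 18.2%).

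Sub-clusters showed where the tail lay. Ductal cluster 10, led by Clspn and Ccne2 among others, carried the 35 genes at 6083 CPM in its 274 Null cells and 6102 CPM in its 409 Control cells. Ductal cluster 11, led by mitotic genes such as Cenpf and Kif23, had 2151 CPM of the 35 genes in the Null and 2352 CPM in the Control library, beside 11115 and 10494 CPM of 30 G2/M genes. Acinar cluster 2, led by Ung, Hells and Cdc6, had 3913 CPM in the Null and 3783 CPM in the Control library. Since the clusters were drawn on these cells' own expression, their levels describe them and were not tested. The same 5 acinar clusters were found in both libraries with different shares: cluster 1, led by enzyme genes, held 37.9% of Null and 16.3% of Control acinar cells, and cluster 2 held 25.4% and 37.5%. Of ductal cells, cluster 5 held 26.6% in the Null and 3.24% in the Control library, and cluster 8 held 22.3% and 35.1%.

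In acinar and ductal cells the 35 genes stood at similar levels in both libraries, with more of them slightly lower than slightly higher in the Null library. Over the 35 genes the median log2 ratio of Null over Control was -0.08 in acinar cells, where all genes with at least 50 UMIs had a median of -0.03, and -0.06 in ductal cells, where all genes had 0.09. In each class 27 of 35 were lower, against 8182 of 14804 genes in acinar and 4895 of 14510 in ductal cells. The 95% interval of the ratio lay below 0 for 21 and above 0 for 4 members in acinar cells. In ductal cells it lay below 0 for 15 and above 0 for 3. No member was 1.5-fold lower or higher in either class, against 5.65% of all 14804 genes lower and 3.69% higher in acinar cells and 3.12% lower and 6.02% higher of 14510 genes in ductal cells. Ccne2, a cyclin E, was the lowest in both, with 21.2 CPM in Null and 28.2 CPM in Control acinar cells (log2 ratio -0.41, exact conditional 95% interval -0.49 to -0.33) and 26.9 and 36.4 CPM in ductal cells (-0.44, -0.53 to -0.35). Mcm7, a helicase subunit, followed in acinar cells with 123 CPM in the Null and 155 CPM in the Control library (-0.34, -0.37 to -0.31). At the other end, Cdc6 had 35.7 CPM in Null and 31.7 CPM in Control acinar cells (0.17), and Pole, the catalytic subunit of the leading-strand polymerase, 19.3 and 17.7 CPM in ductal cells (0.13). Beside them, the 15 acinar enzyme genes summed to 48744 CPM in Null and 27248 CPM in Control acinar cells; their part in the small differences was not tested.

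Endocrine progenitors, the Neurog3-positive cells that have just left the trunk, had lower levels of nearly all the genes in the Null library. Of the 35, 34 were lower, against 4392 of 11404 genes, and 32 had an interval below 0. The median log2 ratio was -0.60 against 0.07 over all genes. At least 1.5-fold lower were 18 of 35, against 3.38% of 11404 genes, and none was 1.5-fold higher, against 4.04%. Ccne2 had 6.41 CPM in the Null and 19.6 CPM in the Control library (-1.61, -2.11 to -1.14), and Rrm2 12.4 and 37.2 CPM (-1.59, -1.94 to -1.25). Cdc6 stood at 3.85 CPM in the Null and 9.43 CPM in the Control library (-1.29), Clspn, which relays the replication checkpoint, at 9.69 and 20.4 CPM (-1.07), and Gmnn at 25.4 and 50.7 CPM (-1.0). The MCM genes differed less, from -0.58 for Mcm5 to 0.01 for Mcm2, which had 38.9 CPM in the Null and 38.5 CPM in the Control library. Cluster 17, with 70.4% of Null and 79.6% of Control progenitors, had 988.8 and 1521 CPM in sum, and cluster 18 had 1177 and 1428 CPM, so both were lower in the Null library. All 30 G2/M genes were lower too, with a median of -0.40, and acinar enzyme UMIs stood at 1962 CPM in Null and 3564 CPM in Control progenitors. All 7 immediate early and stress genes with at least 50 UMIs were higher in the Null library (median 0.35, 2 past 1.5-fold), and their part in the lower levels was not tested. With free RNA subtracted, the median was -0.34 against 0.21 over all genes, and 9 genes were past 1.5-fold lower, against 1.96% of all genes.

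Endocrine cells gave the lowest ratios, and a single cluster carried much of the gap. All 35 genes were lower in the Null library, against 5699 of 13586 genes. The median log2 ratio was -1.59 against 0.07 over all genes, and 32 members were at least 1.5-fold lower, against 11.4% of all genes. None was 1.5-fold higher, against 6.57%. Rrm2 had 7.60 CPM in the Null and 42.0 CPM in the Control library (-2.47, -2.73 to -2.21), Clspn 4.23 and 22.0 CPM (-2.38), and Uhrf1, which recruits the maintenance DNA methyltransferase to new DNA, 6.69 and 34.0 CPM (-2.35). Least different were Pola1, the catalytic subunit of the primase-polymerase, with 30.7 CPM in the Null and 37.0 CPM in the Control library, and Slbp, with 79.8 and 96.6 CPM, both at -0.27. Endocrine cluster 16 had low depth, with median UMIs of 2723 in the Null and 5445 in the Control library, and held 10.3% of Null and 30.8% of Control endocrine cells. It carried 1166 CPM of the 35 genes in the Null and 2253 CPM in the Control library, beside 27013 and 13959 CPM of acinar enzymes. Without that cluster the sums were 500.2 CPM in Null and 759.8 CPM in Control endocrine cells, and the median was -0.77. All 35 genes were still lower, and 24 were past 1.5-fold, against 5.78% of all genes. When the barcodes of a second doublet call were left out instead, the median was -0.95. With only cells of at least 5000 UMIs kept, 32 genes were past 1.5-fold lower, against 11.5% of all genes, and the median was -1.61. With free RNA subtracted it was -0.87 over the 31 genes that could be computed, against 0.40 over all genes. Of the 31, 25 were lower, and Pcna, Cdc45, Slbp, Pola1, Rpa2 and Rfc2 were higher in the Null library (1.78, 0.68, 0.38, 0.25, 0.059 and 0.036). G2/M genes in all endocrine cells summed to 270.5 CPM in the Null and 1671 CPM in the Control library, and acinar enzymes to 2545 and 7024 CPM. The part of doublets in the remaining gap was not tested.

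Mesenchymal cells, the Col1a1- and Pdgfra-positive stroma, showed members on both sides. The median log2 ratio was -0.07 against 0.03 over all genes. Of the members 23 were lower and 12 higher, against 6504 and 7380 of 13884 genes. At least 1.5-fold lower were 2, against 12% of all genes, and none was 1.5-fold higher, against 11.3%. The 2 were Gmnn, with 66.7 CPM in the Null and 120.0 CPM in the Control library (-0.85, -0.95 to -0.75), and Rrm2, with 50.6 and 76.1 CPM (-0.59, -0.70 to -0.47). Ccne1, the other cyclin E, was highest relative to Control, with 87.6 CPM in the Null and 63.5 CPM in the Control library (0.46, 0.37 to 0.56). Clspn had 77.5 CPM in the Null and 62.7 CPM in the Control library (0.31), and Rrm1, the large ribonucleotide reductase subunit, 101 and 83.1 CPM (0.28), so Rrm1 and Rrm2 stood on opposite sides. With free RNA subtracted, Rrm2 was at 0.12 and the median over members at 0.44, close to that of all genes under the same subtraction (0.46). The counts turned round with it: 5 genes were lower and 30 higher, none past 1.5-fold lower and 6 past 1.5-fold higher, against 35.5% of all genes higher. Without the barcodes of a second doublet call, 16 genes were lower and 19 higher (median 0.04), none past 1.5-fold. Cluster 12 had 1891 CPM of the 35 genes in its 17 Null cells and 2944 CPM in its 325 Control cells. It also carried acinar enzymes at 77622 CPM in the Null and 18320 CPM in the Control library. Its median UMIs were 47192 in the Null and 37445 in the Control library, against 12242 and 7294 in the whole class. In it 34 of 35 genes were lower in the Null library, against 13 in cluster 7 and 13 in cluster 9. The larger cluster 7 was slightly higher in the Null library, at 2401 CPM against 2326 CPM in Control (0.05, 0.03 to 0.07). Cluster 9 stood at 2627 CPM in the Null and 2543 CPM in the Control library, not apart beyond counting error (0.05, -0.02 to 0.12). Cluster 9 had low depth, with median UMIs of 1499 in the Null and 2162 in the Control library. It held 36.1% of Null and 38.6% of Control mesenchymal cells and carried acinar enzymes at 15407 and 16216 CPM.

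Cells called mesothelial, after the Wt1- and Upk3b-positive sheet that covers the organ, had lower levels of every member in the Null library. All 35 genes were lower, against 6850 of 12605 genes, and 34 had an interval below 0. The median log2 ratio was -0.51 against -0.04 over all genes. At least 1.5-fold lower were 13 of 35, against 11.1% of 12605 genes, and none was 1.5-fold higher, against 9.77%. The median stayed between -0.58 and -0.41 over 12 other ways of processing. Both mesothelial clusters showed it, cluster 11 with 1691 CPM in the Null and 2460 CPM in the Control library and the low-depth cluster 10 with 1839 and 2591 CPM.

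By role, all 6 MCM genes were lower in Null mesothelial cells. Mcm6 had 83.7 CPM in the Null and 119 CPM in the Control library (-0.51, -0.63 to -0.39), Mcm7 had 71.8 and 125 CPM (-0.80, -0.92 to -0.68), and Mcm2 differed least among them with 34.0 and 45.2 CPM (-0.41). Of the helicase activators, Gins1 gave the lowest ratio of all 35 genes, with 9.92 CPM in the Null and 18.5 CPM in the Control library (-0.90, -1.24 to -0.57). Gmnn had 71.4 CPM in the Null and 124 CPM in the Control library (-0.80, -0.92 to -0.67), while Cdc6 had 14.2 and 19.4 CPM (-0.45). Of the sliding clamp and its loader, Pcna had 109.8 CPM in the Null and 143 CPM in the Control library (-0.38), and Rfc4 had 55.4 and 90.8 CPM (-0.71). Of the genes for Okazaki fragments and single-stranded DNA, Lig1, the ligase, had 93.5 CPM in the Null and 165 CPM in the Control library (-0.82), and Fen1, the flap nuclease, 23.9 and 41.5 CPM (-0.80). Rpa2, a subunit of the protein that coats single strands, was among the least different with 47.8 CPM in the Null and 54.2 CPM in the Control library (-0.18).

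Nucleotide supply split again in mesothelial cells. Rrm2 had 51.7 CPM in the Null and 87.3 CPM in the Control library (-0.76, -0.90 to -0.61), and Tyms, thymidylate synthase, 89.0 and 142 CPM (-0.68, -0.79 to -0.56). Rrm1 was the one member whose interval reached past 0, with 81.1 CPM in the Null and 84.4 CPM in the Control library (-0.06, -0.18 to 0.07). Ung, which removes uracil from DNA, had 20.7 CPM in the Null and 36.9 CPM in the Control library (-0.83), and Uhrf1 had 39.97 and 65.8 CPM (-0.72). Hells, a chromatin remodeller of the SNF2 type, had 96.2 CPM in the Null and 150 CPM in the Control library (-0.64). The cyclins E differed little, Ccne1 with 37.7 and 45.0 CPM (-0.26) and Ccne2 with 19.2 and 23.6 CPM (-0.29).

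**Figure D3:**
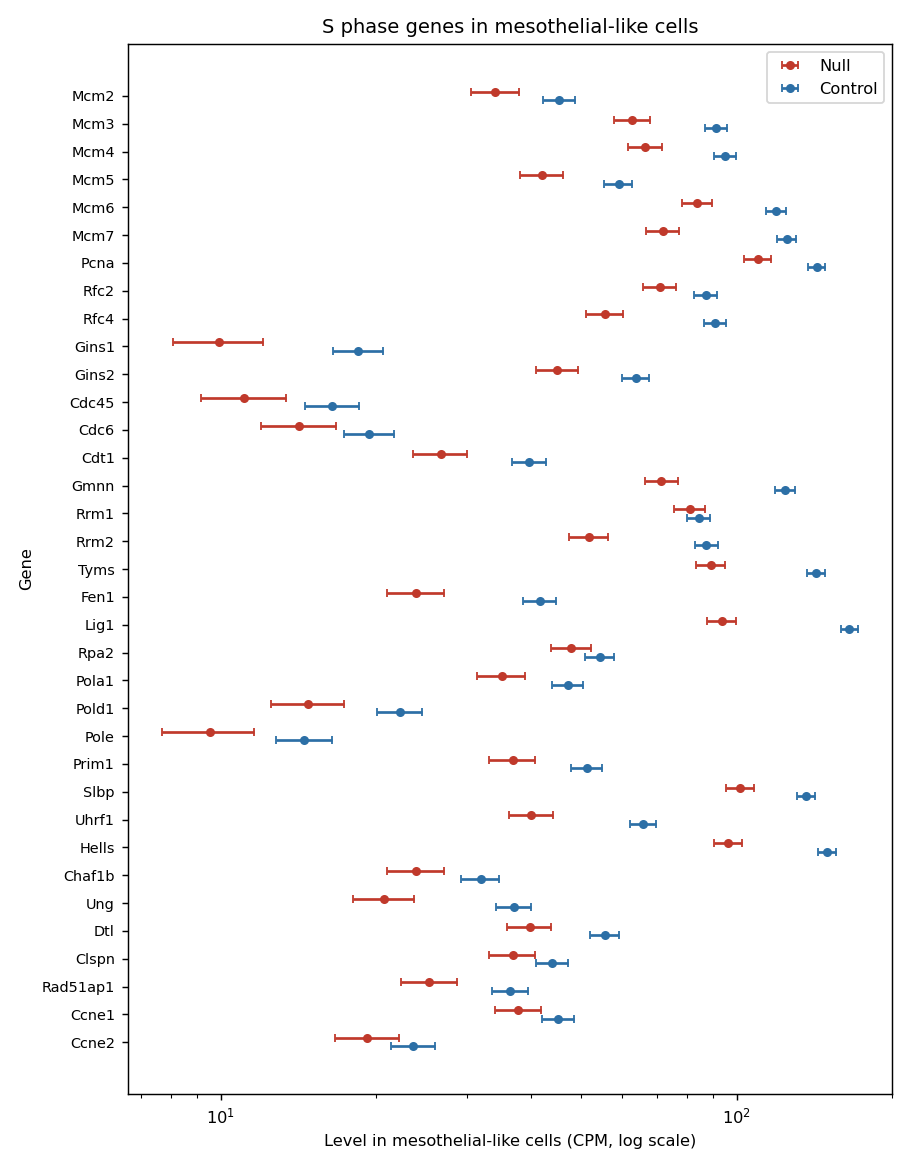
Level of each of the 35 genes in mesothelial-like cells in CPM (horizontal log axis), Null in red above Control in blue, with exact Poisson 95% intervals, grouped by role from top to bottom. Every Null point lies left of its Control point; Rrm1 is nearest (81.1 and 84.4 CPM) and Gins1 farthest on the log scale (9.92 and 18.5 CPM).

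Other cycle genes in mesothelial cells went in the same direction. Of 53 other replication genes, 51 were lower in Null cells (median -0.35, 11 of them past 1.5-fold), and all 30 G2/M genes were lower with a median of -0.44. Cdc7, the kinase that fires origins, had 18.3 CPM in the Null and 43.2 CPM in the Control library (-1.24), whereas Pold4, the smallest subunit of polymerase delta, had 29.1 and 17.7 CPM (0.71). Of the E2F and RB family, 11 of 13 were lower, E2f3 the lowest with 23.3 CPM in the Null and 38.9 CPM in the Control library (-0.74), and Rbl2, the p130 pocket protein, the highest with 19.3 and 14.7 CPM (0.40). Of the cyclin-dependent kinase inhibitors, Cdkn1c (p57) had 2579 CPM in the Null and 1352 CPM in the Control library (0.93, 0.91 to 0.96), and Cdkn1a (p21) had 14.4 and 59.3 CPM (-2.04, -2.31 to -1.79). Cells called mesothelial also carried more mesenchymal marker UMIs in the Null library, 8673 CPM against 2737 CPM in Control with 6 of 8 markers higher. The mesothelial markers summed to 1341 CPM in the Null and 1169 CPM in the Control library, with 4 of 8 higher and 4 lower (median 0.01). In the mesenchymal class the same mesenchymal markers summed to 8598 CPM in the Null and 4136 CPM in the Control library. The Null mesothelial class thus carried them about as high as the Null mesenchymal class, and the Control mesothelial class did not. Of 17 genes listed for RNA quality, the 9 immediate early and stress genes were all higher in the Null library (median 0.73), while the sum of the list, which includes 8 mitochondrial transcripts, was 31154 CPM in the Null and 38369 CPM in the Control library. The part of these in the lower levels was not tested.

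In immune cells the genes lay on both sides, and the split depended on the processing. The median log2 ratio was 0.05 against -0.07 over all genes. Of the members 18 were higher and 17 lower, against 4547 and 6117 of 10664 genes. None passed 1.5-fold in either direction, against 15.5% of all genes lower and 9.02% higher. With free RNA subtracted, 33 of 35 were higher and 8 passed 1.5-fold higher, against 14.8% of all genes. With cells thinned to 2000 UMIs, 9 passed 1.5-fold lower and 2 higher, against 22.4% and 16.9% of all genes. Hells was highest with 155 CPM in the Null and 113 CPM in the Control library (0.46, 0.31 to 0.61), and Tyms lowest with 87.7 and 121 CPM (-0.46, -0.64 to -0.29). Cluster 17, led by C1qb and Tyrobp, with 79.7% of Null and 79.2% of Control immune cells, had 2508 and 2240 CPM. Cluster 18, led by Cpa3 and Cma1, had 2645 CPM in the Null and 2999 CPM in the Control library, and cluster 19, led by S100a9 and S100a8, had 1567 and 2128 CPM.

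A few members were lower in the Null library throughout. Mcm7, Gins2, Gmnn, Tyms, Fen1, Lig1, Rfc2, Rfc4 and Chaf1b had a ratio below 0 in all 7 classes compared, and for Gmnn, Tyms and Rfc4 all 7 intervals lay below 0. Of the 9466 genes with at least 50 UMIs in every class compared, 8.94% had a ratio below 0 in all 7 and 2.94% had all intervals below 0. Of the 9 named genes only Gmnn and Tyms overlap no other annotated gene; Rfc4, for example, lies over the opposite strand of Eif4a2. Gmnn was past 1.5-fold lower in 4 classes. Its log2 ratios there were -1.91 in endocrine cells, -1.0 in endocrine progenitors, -0.85 in mesenchymal and -0.80 in mesothelial cells. In acinar, ductal and immune cells they were -0.27, -0.28 and -0.24. In mesenchymal cells no member, Gmnn included, was past 1.5-fold lower with free RNA subtracted or without the barcodes of the second doublet call. In low-UMI barcodes Gmnn stood at 147 CPM in the Null and 169 CPM in the Control library (-0.20), and Tyms at 180 and 184 CPM (-0.03). The 7 ratios share their libraries and are not independent.

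**Figure D4:**
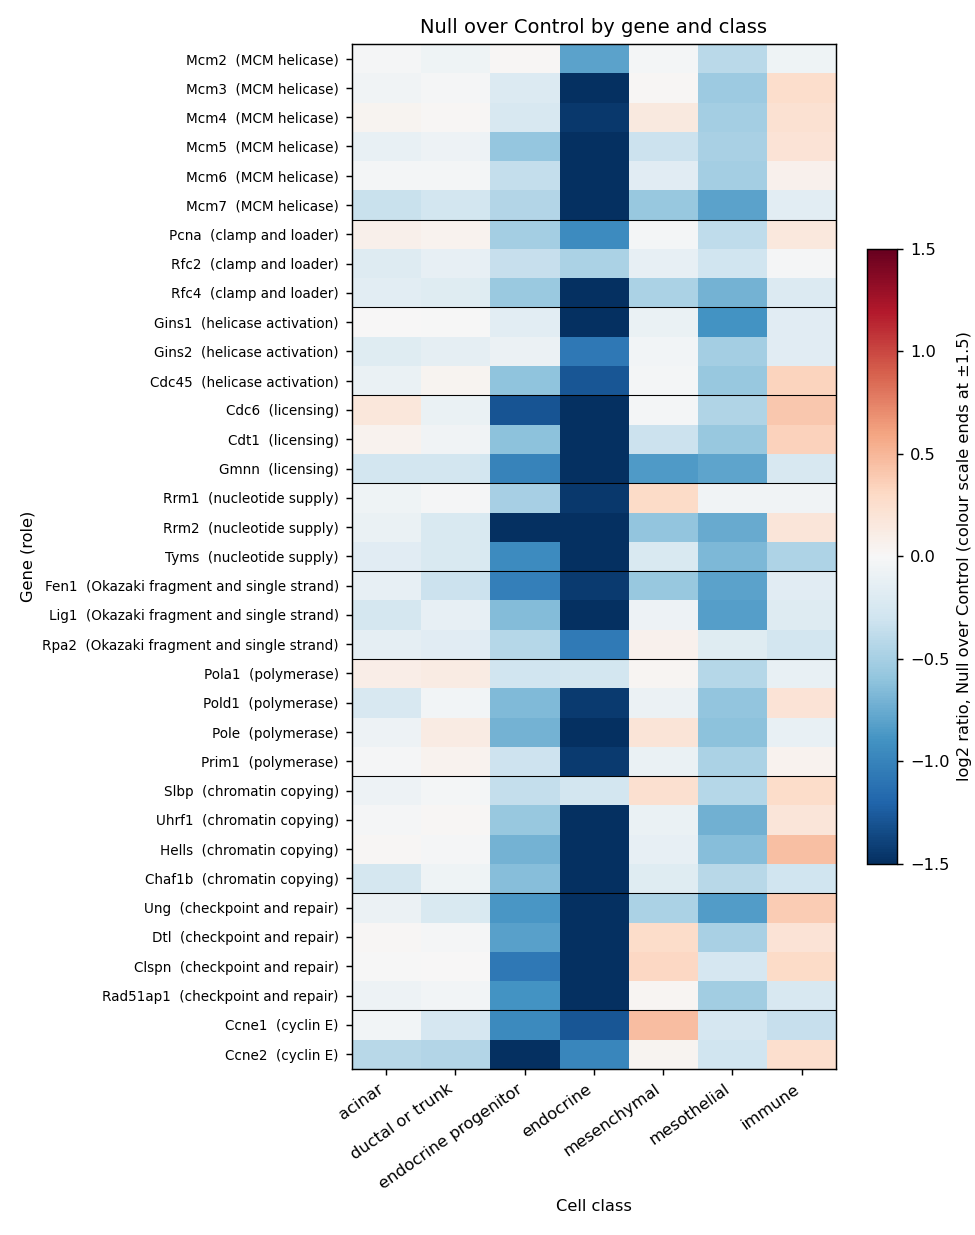
log2 ratio of Null over Control for each of the 35 genes (down the page, grouped by role) in the 7 classes compared (across), blue where Null is lower and red where it is higher; colours end at 1.5 in either direction. The endocrine and mesothelial columns are blue throughout, the acinar and ductal columns are pale, and Gmnn is blue in every column.

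The Null library's cells were nearly all Y-linked, so the Control cells were also split by Xist and Y-linked UMIs. Within the Control library, Xist over Y-linked cells gave medians over the 35 genes of -0.04 in acinar, -0.08 in ductal, 0.09 in mesenchymal and -0.09 in mesothelial cells, and no member passed 1.5-fold in these classes. The medians were 0.17 in endocrine progenitors, 0.11 in endocrine and 0.16 in immune cells, with 2, 2 and 3 members past 1.5-fold. No share over all genes stands beside these counts. With Control restricted to Y-linked cells, the mesothelial median was -0.58 and all 35 genes were lower in the Null library. Pola1, on the X chromosome, is the one X-linked member.

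Within a class, the members did not follow one another evenly. Over acinar cells thinned to 5000 UMIs (2450 in the Null and 3413 in the Control library), Pcna correlated most with the sum of the other 34 genes (Pearson r = 0.50 in the Null and 0.43 in the Control library), followed by Hells (0.49 and 0.40). In ductal cells (1970 and 3339) the same genes led, Pcna with 0.59 in the Null and 0.48 in the Control library and Hells with 0.57 and 0.52. In mesenchymal cells (734 and 2562) others led, Lig1 in the Null (0.55, Control 0.45) and Clspn in the Control library (0.47, Null 0.52). There Pcna had 0.48 in the Null and 0.45 in the Control library, and Hells 0.48 and 0.40. Against the summed G2/M genes, Ung gave the lowest r in acinar cells (-0.24 in the Null and -0.27 in the Control library), with Hells at -0.20 and -0.25 and Mcm4 at -0.18 and -0.20. Tyms (0.17 in the Null and 0.13 in the Control library) and Rrm1 (0.15 and 0.12) were at the other end. In ductal cells Tyms reached 0.22 in the Null and 0.19 in the Control library, and Ung -0.18 and -0.19. Cells of a library share its free RNA and its handling, all were brought to 1 depth, and genes with few UMIs give low r, so these values are descriptions.

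**Figure D5:**
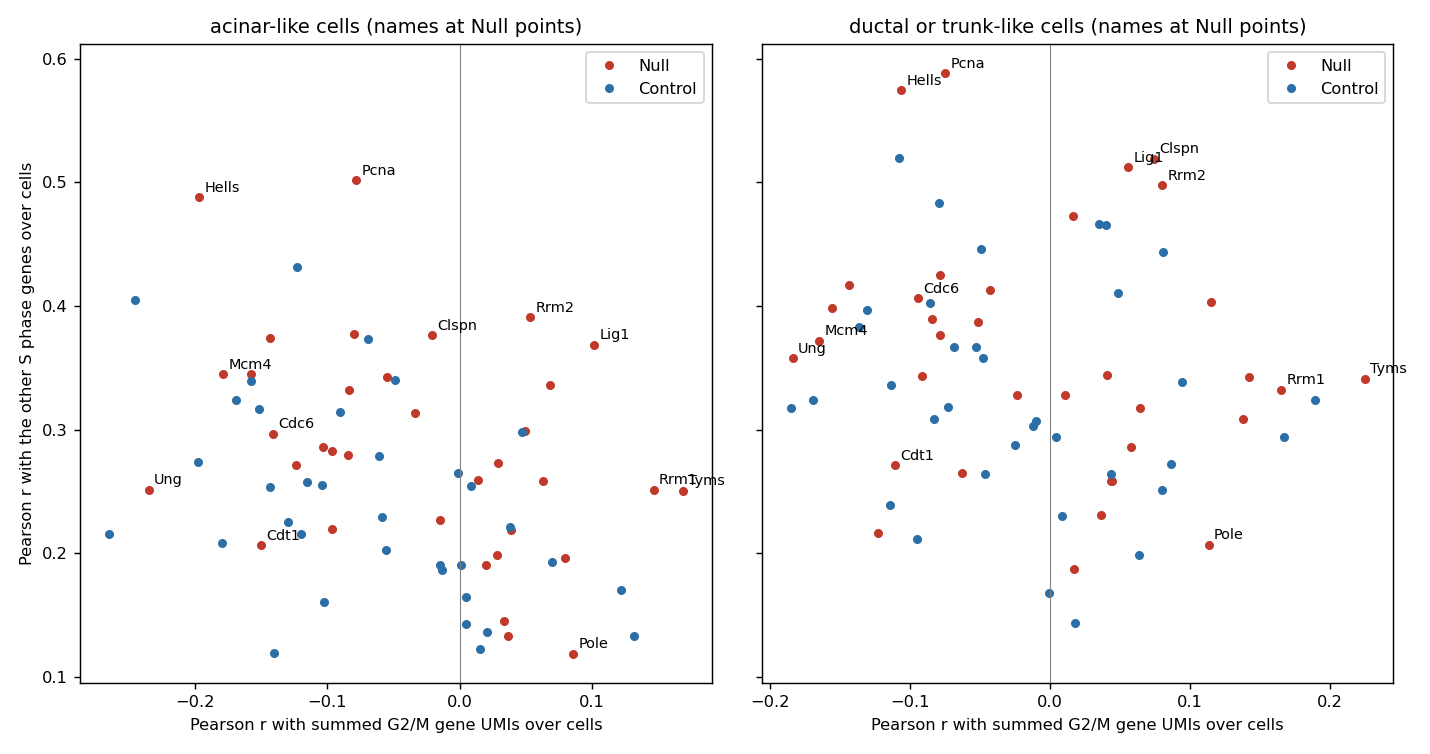
For each of the 35 genes (points), Pearson r over cells with the summed UMIs of 30 G2/M genes (horizontal axis) and with the summed UMIs of the other 34 genes (vertical axis), in acinar-like cells (left) and ductal or trunk-like cells (right), Null in red and Control in blue, with cells thinned to 5000 UMIs. Ung, Hells and Mcm4 lie left of 0 and Tyms and Rrm1 right of 0 in both classes and libraries.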

How the data were processed

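Droplet libraries of 1 Null and 1 Control pool were analysed from the UMI counts per gene and barcode, which the authors made with Cell Ranger 6.1.1 per the file headers, on mm10 per the submitters' processing notes (bcl2fastq and Seurat 3.2.3 are named there without a role). Barcodes with at least 1000 UMIs, 300 genes and under 15% mitochondrial UMIs were kept. Doublets were removed with Scrublet in scanpy 1.11.5, at the automatic score in Null (5.69% called) and at 0.25 in Control (0.769%), where the automatic score called 0%. Cells were clustered (2000 variable genes without 222 cycle genes, 30 components, 15 neighbours, Leiden resolution 1, igraph 0.11.9) and named from marker lists. UMIs were summed per library and class; genes with at least 50 UMIs in a class of at least 200 cells per library were compared, with 95% intervals that cover counting error only. With 1 library per group no p-value was computed. The ratio script was tested on simulated counts. The unnamed low-UMI cluster (277 Null and 10160 Control barcodes) was left out of the classes. So were unnamed epithelial cluster 21, led by Fev (113 Null and 314 Control cells), and unnamed epithelial cluster 3, led by Col3a1 (9 and 150). Scripts ran on Python 3.11.15, numpy 2.4.6, scipy 1.17.1 and pandas 2.3.3. Members were named by role, and of 7 further lists at most the 3 highest and 3 lowest genes. Members and lists were chosen with earlier results of these data known.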

Additional observations from a re-analysis of the deposited data

How the results depend on the processing

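No paired analysis was possible because each group is 1 library. Over 12 alternatives (13 in endocrine cells) the median log2 ratio kept its sign in endocrine progenitors (-0.76 to -0.34), endocrine cells (-1.61 to -0.77) and mesothelial cells (-0.58 to -0.41), and changed sign in acinar, ductal, mesenchymal and immune cells (-0.15 to 0.03, -0.11 to 0.03, -0.12 to 0.44 and -0.18 to 0.32). Leaving out a second doublet call, the barcodes of both libraries or the low-UMI endocrine cluster was chosen after seeing the data. Beyond the counting interval, the cause not tested, medians moved as follows. Thinning to 2000 UMIs gave -0.15 in acinar, -1.26 in endocrine and -0.18 in immune cells. Weighting clusters alike gave 0.027 in acinar, -0.014 in ductal, -0.94 in endocrine and 0.070 in mesenchymal cells. Subtracting free RNA gave 0.026 in ductal cells, -0.34 in progenitors, -0.87 in endocrine, 0.44 in mesenchymal, -0.41 in mesothelial and 0.32 in immune cells. In the same order, the medians over all genes under this subtraction were 0.195, 0.21, 0.40, 0.46, 0.11 and 0.18. The subtraction left 9 progenitor genes past 1.5-fold lower (18 without it), against 1.96% of all genes. It left 19 endocrine genes (32 without it), against 4.72%, and 8 mesothelial genes (13 without it), against 8.05%. Averaging over cells gave -1.26 in endocrine, 0.026 in mesenchymal and -0.43 in mesothelial cells. Restricting Control to Y-linked cells gave -1.22 in endocrine and 0.052 in mesenchymal cells. Without doublet removal the endocrine median was -0.93. The second doublet call gave -0.95 in endocrine and 0.040 in mesenchymal cells, and leaving out the low-UMI cluster -0.77 in endocrine cells. In the Control library that also gave 2.21 for acinar, 2.26 for ductal and 0.95 for progenitor over endocrine cells. In immune cells free RNA subtraction left 33 of 35 genes higher and in mesenchymal cells 30 of 35. Clustering with cell cycle genes gave -0.76 in progenitors.

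That clustering also gave summed levels of 2746 CPM in Null and 2933 CPM in Control acinar cells, 805.0 and 1214 CPM in progenitors, 2912 CPM in Null ductal cells, and in Control 2419 CPM in mesenchymal, 2419 CPM in mesothelial and 2347 CPM in immune cells. With free RNA subtracted, Null and Control sums were 2669 and 2756 CPM in acinar cells, 2726 and 2714 CPM in ductal cells, 872.2 and 1048 CPM in progenitors, 293.6 and 404.7 CPM in endocrine cells, 1823 and 1346 CPM in mesenchymal cells, 1509 and 1999.98 CPM in mesothelial cells and 2283 and 1793 CPM in immune cells. Under the second doublet call endocrine cells had 509.1 CPM in Null and 863.5 CPM in Control, and Control sums were 2360 CPM in mesenchymal, 2417 CPM in mesothelial and 2439 CPM in immune cells. Without the low-UMI cluster endocrine cells had 500.2 CPM in Null and 759.8 CPM in Control.

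Thinned to 5000 UMIs, which by itself raises the counts, the Null and Control shares of cells with at least 10 UMIs were 58% and 68.0% in acinar cells, 49.6% and 57.7% in ductal cells, 9.40% and 17.0% in progenitors, 38.6% and 44.0% in mesenchymal cells, 23.1% and 40.9% in mesothelial cells and 37.5% and 41.05% in immune cells, and 0.952% and 10.3% in endocrine cells. Of single genes, Ung (0.015) and Rad51ap1 (0.71) in progenitors turned to higher when thinned to 2000 UMIs. Pcna (1.78), Cdc45 (0.68) and Rpa2 (0.059), and of genes under 1.5-fold Slbp (0.38), Pola1 (0.25) and Rfc2 (0.036), in endocrine cells and Rrm2 (0.12) in mesenchymal cells did so with free RNA subtracted.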
